A study of Mus musculus with 8 samples.

Results

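The platelet-derived growth factor (PDGF) family comprises 4 ligand genes, Pdgfa, Pdgfb, Pdgfc and Pdgfd, and 2 receptor genes, Pdgfra and Pdgfrb, and these 6 of the 16122 genes in the deposited liver table were selected by gene name. The ligands are secreted as disulfide-linked dimers that bring a pair of receptor tyrosine kinases together. PDGF-AA and PDGF-CC act mainly through the alpha receptor, PDGF-DD mainly through the beta receptor, and PDGF-BB through both. In the liver the beta receptor is known from stellate cells, the pericytes of the sinusoid, and PDGF-BB is known as a mitogen for stellate cells that have become collagen-producing myofibroblasts.

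Bulk RNA sequencing of livers from male C57BL/6J mice, an inbred strain, gave 4 libraries labelled NASH (nonalcoholic steatohepatitis, a fatty and inflamed liver) and 4 labelled WT. The genotype label is WT for all 8 libraries and no engineered allele or agent is named. Mice were bought at 8 weeks of age and kept for 28 weeks on either normal diet or a diet high in fat, cholesterol and fructose; taking the second diet to be that of the NASH group is a reading made here. The replicates are numbered but not said to be separate animals, so each p-value measures the spread between libraries, which may be technical. Counts per library summed to between 25760117 and 32684719, and the 6 PDGF genes together took between 895 and 4602 of them. The tissue label was met by hepatocyte transcripts, with 9 listed hepatocyte genes summing to between 50210 and 180100 CPM in every library, CPM being counts brought to one common total per library. Alb alone averaged 66120 CPM of that list's 90760 in NASH and 131300 of 164900 in WT. Ahsg, on the same list, averaged only 4.82 CPM in NASH and 4.435 in WT, and Tf was not in the table. The cause of the low Ahsg value was not tested.

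All 6 genes are annotated on GRCm38 by GENCODE M21. Pdgfra lies on the forward strand of chromosome 5, from 75152292 to 75198215, and Pdgfa on the reverse strand of the same chromosome, from 138976014 to 138997370. Pdgfb lies on the reverse strand of chromosome 15, from 79995874 to 80014977. Pdgfc lies on the forward strand of chromosome 3, from 81036416 to 81214040, and Pdgfd on the forward strand of chromosome 9, from 6168584 to 6378850. Pdgfrb is placed where its values are given. No stretch of 50 bases in the transcripts of one member occurred in those of another, so reads of that length that match exactly could not be divided between members. An antisense gene, 6330403L08Rik, shares 813 exonic bases with Pdgfa, and the antisense gene Gm42802 shares 456 with Pdgfra. The library kit keeps strand, but the strand setting of the counting is not given in the sources used here, so reads from these partners may be included.

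The upstream sequences of 3 members are shown, those for which a full 250-base window free of annotated exons was at hand. Pdgfra passed the test between the groups, while Pdgfc and Pdgfd did not. That is a difference in calls only, since the change in Pdgfc over Pdgfra was 0.06 on the log2 scale (exact permutation p = 0.629). Each is the 250 bases before the RefSeq start on the forward strand of GRCm38.p6, written 5′ to 3′, with capitals marking the letters of a searched motif. Pdgfra is chr5:75152001-75152250, Pdgfc is chr3:81036166-81036415 and Pdgfd is chr9:6168236-6168485.
Pdgfra: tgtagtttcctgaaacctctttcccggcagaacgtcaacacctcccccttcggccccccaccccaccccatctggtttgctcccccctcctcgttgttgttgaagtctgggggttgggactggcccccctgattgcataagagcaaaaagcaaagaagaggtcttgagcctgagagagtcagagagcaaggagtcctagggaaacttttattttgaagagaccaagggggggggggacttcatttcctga
Pdgfc: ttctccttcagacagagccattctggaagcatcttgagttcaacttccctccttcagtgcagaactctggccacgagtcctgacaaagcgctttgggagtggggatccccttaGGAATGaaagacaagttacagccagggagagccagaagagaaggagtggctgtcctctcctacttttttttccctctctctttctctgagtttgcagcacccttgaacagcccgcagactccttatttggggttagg
Pdgfd: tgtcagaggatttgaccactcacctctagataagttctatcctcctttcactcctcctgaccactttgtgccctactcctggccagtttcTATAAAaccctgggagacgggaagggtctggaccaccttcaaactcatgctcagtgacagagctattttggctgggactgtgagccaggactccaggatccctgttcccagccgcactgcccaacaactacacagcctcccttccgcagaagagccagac

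Both strands were searched for the TATA box letters TATAAA, the GC box letters GGGCGG, the AP-1 letters TGANTCA and the TEAD letters CATTCC, none of which overlapped another in these windows. The Pdgfd window held 1 TATA box, starting 91 bases from the left end, as did 12.4% of 32851 RefSeq promoter windows of the same length. In the Pdgfc window 1 TEAD match lay on the reverse strand, starting at base 114, and 12.6% of windows held that motif. None of the 4 motifs was found in the Pdgfra window, where GC boxes occur in 32.7% and AP-1 letters in 6.75% of all windows. These matches describe letters only.

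Both receptors were higher in NASH than in WT livers, Pdgfrb by 3.38-fold and Pdgfra by 1.90-fold, and among the ligands Pdgfb was higher by 6.12-fold. Pdgfa, Pdgfc and Pdgfd did not pass the test. Of the 6 PDGF genes tested, 3 were therefore higher and 0 lower at an adjusted p under 0.05, where the corresponding shares over all 12351 tested genes were 12.9% and 6.00% (edgeR's quasi-likelihood F-test, two-sided, Benjamini-Hochberg over all genes tested). All 6 fitted changes were positive, with a median log2 fold change of 1.00, beside a median of 0.01 over all genes tested. In whole liver, a change in the number of cells of a type and a change in RNA per cell cannot be told apart.

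Pdgfrb encodes the beta receptor and lies on the forward strand of chromosome 18, from 61045150 to 61085061. In NASH replicates 1 to 4 it stood at 16.4, 32.4, 39.8 and 53.1 CPM, after scaling by the trimmed mean of M-values (TMM). WT replicates 1 to 4 gave 10.7, 11.99, 8.56 and 10.8 CPM. Every NASH library lay above every WT library, and the NASH libraries ranged over 3.24-fold where the WT libraries ranged over 1.40-fold. The means were 35.4 ± 15.3 against 10.5 ± 1.42 CPM (SD, n = 4 each), with a log2 fold change of 1.76 ± 0.31 (SE) and an adjusted p of 0.00978 in the edgeR test. A larger log2 fold change was found for 6.66% of the genes tested.

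Pdgfra encodes the alpha receptor. NASH replicates 1 to 4 held 14.97, 19.4, 29.5 and 31.2 CPM and WT replicates 1 to 4 held 13.9, 14.98, 10.3 and 10.8 CPM. The groups met at their edges, since the lowest NASH library, replicate 1, lay just below the highest WT library, replicate 2. The log2 fold change was 0.93 ± 0.24 (means 23.8 ± 7.84 and 12.5 ± 2.29 CPM, edgeR adjusted p = 0.0299). This call was lost when NASH replicate 3 or 4, or any single WT library, was left out, with adjusted p between 0.0503 and 0.0855.

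Pdgfb, the ligand that binds both receptors, had the lowest level of the family in WT. Its raw counts were 25, 24, 9 and 26 in WT replicates 1 to 4 and 61, 85, 324 and 163 in NASH replicates 1 to 4. Scaled, these were 1.05, 0.875, 0.308 and 0.909 CPM in WT and 2.40, 3.15, 8.22 and 5.42 CPM in NASH. No NASH library came down to the WT range, and NASH replicate 3 was the highest. Means were 4.80 ± 2.62 against 0.786 ± 0.328 CPM, giving a log2 fold change of 2.61 ± 0.49 with a 95% interval of 1.51 to 3.72 and an adjusted p of 0.0112 (edgeR). Only 2.33% of the genes tested had a larger log2 fold change.

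Pdgfc encodes a ligand that is secreted as a latent dimer and becomes active when its CUB domains are cut off. It stood at 7.37, 9.03, 22.7 and 12.9 CPM in NASH replicates 1 to 4 and at 5.60, 6.67, 7.74 and 4.62 CPM in the WT replicates. 3 of the 4 NASH libraries exceeded every WT library, and replicate 1 lay below the highest WT library. With a log2 fold change of 1.08 ± 0.34 the gene narrowly missed the threshold (edgeR adjusted p = 0.0556). It passed without NASH replicate 1, at 1.27 (adjusted p = 0.0157), gave 0.65 without NASH replicate 3, and passed in DESeq2 on all 8 libraries, at 1.07 (adjusted p = 0.0154).

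Pdgfd, the other ligand with CUB domains, was measured at 3.58, 9.70, 7.66 and 6.91 CPM in NASH replicates 1 to 4 and at 3.87, 4.59, 5.10 and 2.45 CPM in the WT replicates. NASH replicate 1 lay within the WT range, and the other 3 NASH libraries lay above it. Its log2 fold change was 0.80 ± 0.33 (edgeR adjusted p = 0.115), and without NASH replicate 1 it was 1.01 (adjusted p = 0.0221).

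Pdgfa, which encodes the A chain, gave 3.43, 4.59, 8.88 and 4.49 CPM in NASH replicates 1 to 4 and 2.57, 4.45, 2.67 and 4.93 CPM in the WT replicates. Only NASH replicate 3 lay above the WT range. The log2 fold change of 0.55 ± 0.35 had a 95% interval from −0.23 to 1.34 (edgeR adjusted p = 0.28), which holds both a small fall and a rise of more than 2-fold. Without NASH replicate 3 the value was 0.18.

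**Figure D1:**
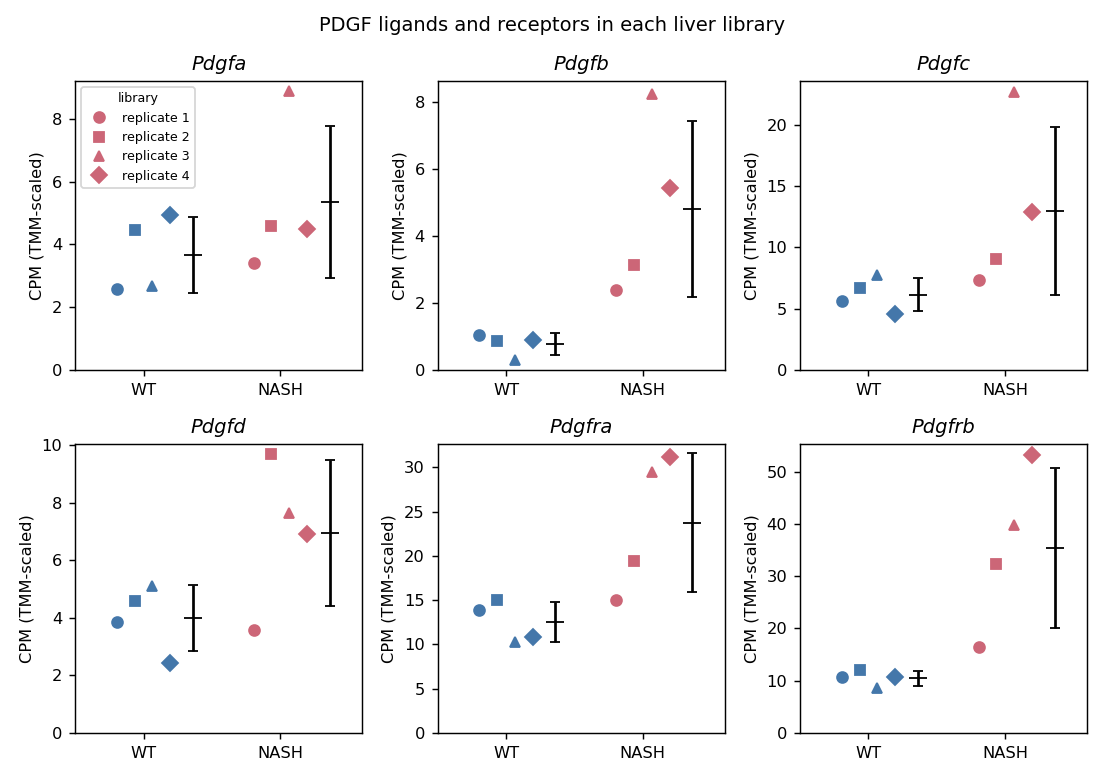
TMM-scaled CPM of each PDGF gene in the 4 WT (blue) and 4 NASH (red) libraries, with marker shape giving the replicate number and black bars the mean ± SD. Pdgfb and Pdgfrb show no overlap between the groups, and NASH replicate 1 is the lowest NASH library in all 6 panels.

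For 2 of the 6 genes, Pdgfb and Pdgfrb, every NASH library lay above every WT library, as was the case for 14.6% of all genes tested. The plot of fold changes shows that every fitted value stayed above 0 when any single library was left out. Pdgfb ranged from 2.21 to 2.83 and Pdgfrb from 1.48 to 1.99 on the log2 scale in those 8 fits, and both passed in each of them, with the largest adjusted p at 0.0377 and 0.0379 (edgeR).

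**Figure D2:**
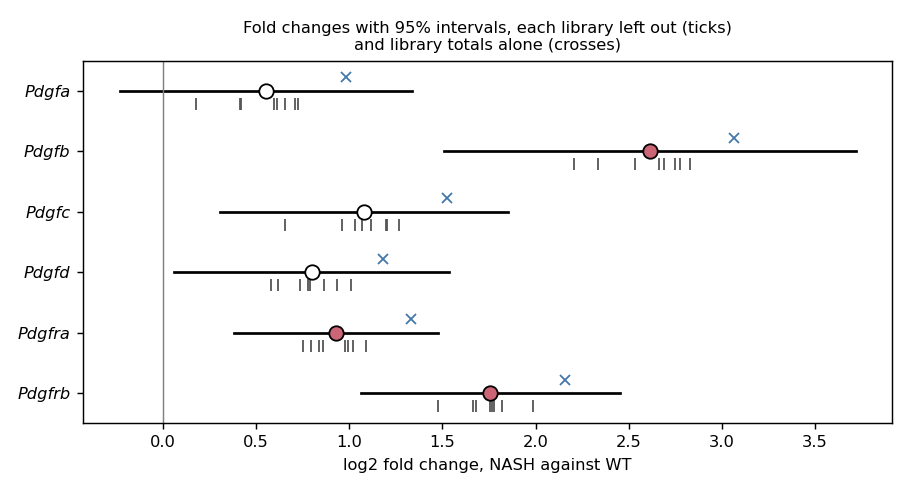
Log2 fold change of NASH against WT for each PDGF gene, with 95% intervals as lines, red circles for adjusted p under 0.05 and open circles otherwise. Grey ticks are the fits without 1 library and blue crosses the fit scaled by library totals alone; all values lie above 0, and the interval of Pdgfa reaches from −0.23 to 1.34.

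The NASH libraries differed among themselves. Replicate 1 was the lowest NASH library for all 6 genes. The highest value fell in replicate 3 for 3 genes (Pdgfa, Pdgfb and Pdgfc), in replicate 4 for 2 (Pdgfra and Pdgfrb) and in replicate 2 for 1 (Pdgfd). Relative to the WT mean, Pdgfrb stood at 1.56, 3.09, 3.79 and 5.06 times in NASH replicates 1 to 4, while Pdgfb stood at 3.06, 4.001, 10.4 and 6.89 times. The coefficient of variation was larger in NASH for every member, from 33% for Pdgfra to 54.6% for Pdgfb, where WT ran from 13.6% for Pdgfrb to 41.7% for Pdgfb.

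**Figure D3:**
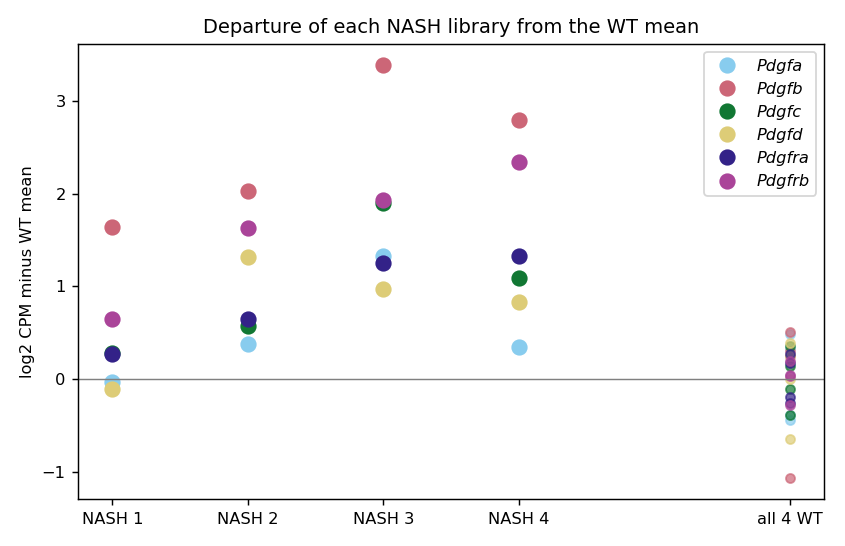
Log2 CPM of each PDGF gene minus its WT mean, for NASH replicates 1 to 4 and, at the right, for the 4 WT libraries together. Pdgfb is the highest point in each NASH library, and Pdgfa and Pdgfd lie slightly below 0 in replicate 1.

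Levels of different genes were compared as CPM per kilobase of merged exons, a scale on which a long transcript does not count for more. By mean, Pdgfrb was the highest member in both groups, at 6.47 ± 2.80 CPM per kilobase in NASH and 1.92 ± 0.260 in WT. In WT replicate 3, however, Pdgfd lay above Pdgfrb, at 1.62 against 1.56, so their WT ranges overlapped. Pdgfb was the lowest in both groups, at 1.15 ± 0.629 in NASH and 0.189 ± 0.0788 in WT. Between them, the other 4 genes had WT means of 1.17 to 1.27 CPM per kilobase, closer together than the spread of their libraries, and NASH means from 1.71 for Pdgfa to 2.55 for Pdgfc, again within their spread. In WT the highest Pdgfb library, at 0.253 CPM per kilobase, lay below the lowest Pdgfa library, at 0.824. In NASH the ranges of those neighbours overlapped across libraries, as did those of Pdgfrb and Pdgfc. Within every single NASH library, however, Pdgfb lay below Pdgfa and Pdgfrb above Pdgfc.

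On the same per-kilobase scale, Pdgfb made up 13.6%, 10.7%, 16.9% and 17.4% of the summed ligand level in NASH replicates 1 to 4. Its share in the WT replicates was 7.43%, 4.78%, 1.82% and 6.28%. All 4 NASH shares lay above the 4 WT shares. The mean share of Pdgfc was 32.8% in NASH and 31.4% in WT, and that of Pdgfd 30.1% and 32.8%. Of the summed receptor level, Pdgfrb took between 66.7% and 75.7% in the NASH libraries and between 58.3% and 64.5% in the WT libraries. The WT order of the receptors rests on the merged exon lengths, 10.02 kilobases for Pdgfra and 5.48 for Pdgfrb. In CPM not divided by length, Pdgfra exceeded Pdgfrb in every WT library, with Pdgfrb to Pdgfra ratios of 0.764 to 0.994.

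Whether members changed by different amounts was tested on log2 ratios within each library, which do not depend on how libraries are scaled apart from the 0.5 CPM added to each value. All 15 pairs were compared. None passed after adjustment (exact permutation test, two-sided, smallest adjusted p 0.0857), and 5 pairs reached 0.0286, the smallest p that 4 against 4 libraries allow. For any to pass, 9 of the 15 pairs would have had to reach that p, so the test had little room to make a call. For Pdgfra over Pdgfrb, the mean log2 ratio was −0.51 ± 0.30 in NASH and 0.24 ± 0.16 in WT, a difference of −0.74. The ratio was lower in all 4 NASH libraries than in any WT library. The other 4 pairs at that p were Pdgfa over Pdgfb (−1.49), Pdgfa over Pdgfrb (−1.14), Pdgfb over Pdgfc (1.04) and Pdgfb over Pdgfra (1.10). Pdgfb over Pdgfrb, a ligand and its receptor, differed by 0.35 between groups (exact permutation p = 0.257, 0.429 adjusted over the 15 pairs). Since WT Pdgfb is low, that value rested on the constant added: it was 0.78 with 0.1 CPM (exact permutation p = 0.0857) and 0.05 with 1 CPM (p = 0.857). The difference for Pdgfb over Pdgfra was likewise 1.54 and 0.78, while that for Pdgfra over Pdgfrb was −0.76 and −0.73.

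**Figure D4:**
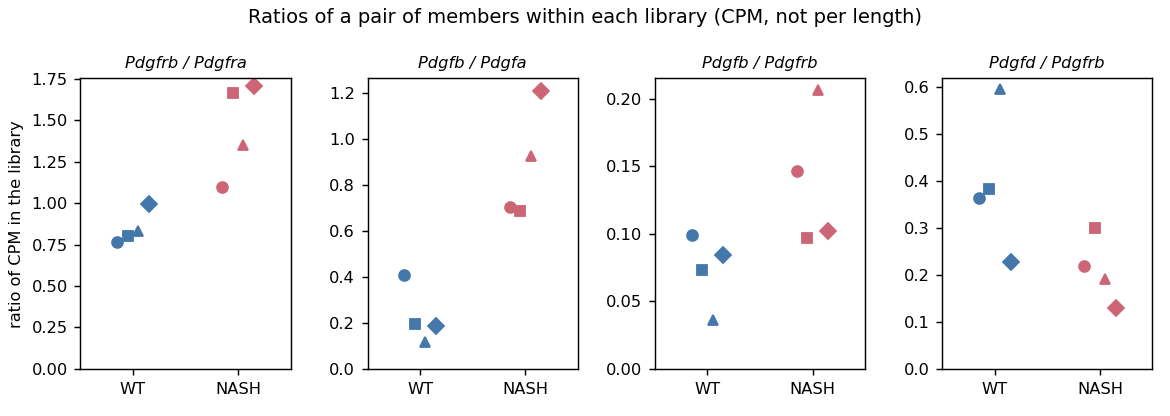
Ratios of the CPM of a pair of PDGF genes within each library, not divided by length, for the WT (blue) and NASH (red) libraries, with marker shape for the replicate number. The Pdgfrb to Pdgfra ratio is 0.764 to 0.994 in WT and 1.10 to 1.71 in NASH, without overlap, while the Pdgfb to Pdgfrb ratios overlap.

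Genes that act with the family were taken from a list of 61 in 7 role groups. Of these, 60 were in the table and 59 were tested; 8 were higher, 3 were lower and 48 did not pass (edgeR), with a median log2 fold change of 0.05. The shares called, 13.6% higher and 5.08% lower, were near those of all genes tested, 12.9% and 6.00%. Thus 33 of the 59 fitted changes were positive, beside 50.9% of all genes tested. Scaled by library totals alone, 52 were positive and 13 passed as higher, so directions near 0 in this list depend on the scaling. Without WT replicate 1, the number higher was 2.

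Proteases that process the ligands held 2 higher and 0 lower of 5 tested. Plat, tissue plasminogen activator, which can cut PDGF-C, averaged 5.35 ± 4.13 CPM in the NASH libraries and 0.419 ± 0.176 in WT (log2 fold change 3.66 ± 0.78, edgeR adjusted p = 0.0154). NASH replicate 1, at 0.591 CPM, lay close to the highest WT library, at 0.582, while the other NASH libraries held 3.22 to 9.11. Plau, urokinase, which can cut PDGF-D, stood at 11.6 ± 7.17 against 2.06 ± 1.10 CPM (2.50 ± 0.52, adjusted p = 0.0148). Both lost their calls without WT replicate 1, at adjusted p of 0.054 and 0.0504. Furin, a proprotein convertase, gave −0.04 (adjusted p = 0.89), and St14, matriptase, 1.48 (adjusted p = 0.0966).

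Proteins that bind the ligands and co-receptors also had 2 higher of 5 tested. Sparc, a matrix protein that binds PDGF-B chains, rose from 50.2 ± 8.83 to 184 ± 99.5 CPM (log2 fold change 1.87 ± 0.34, edgeR adjusted p = 0.0106), and its call was kept without each library in turn. Thbs1, thrombospondin, rose by 2.84 ± 0.65 (adjusted p = 0.0193), with 54.4 CPM in NASH replicate 3 and 7.41 to 15.3 in the other NASH libraries. It no longer passed without WT replicate 1, 2 or 3. Cspg4, the proteoglycan NG2 of pericytes, was below the low-count filter.

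None of the 3 related receptor kinases passed. Kit held 6.72 ± 0.729 CPM in NASH and 6.87 ± 2.15 in WT. Flt3 gave a log2 fold change of 1.10 ± 0.43 (edgeR adjusted p = 0.103). Csf1r, the macrophage receptor whose gene starts 15536 bases beyond the end of Pdgfrb on the same strand, held 0 to 18 counts per library, although macrophage genes such as Lyz2 stood at 401 ± 294 CPM in NASH; the cause of this low value was not tested.

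Adaptors and receptor-bound enzymes held 2 higher and 1 lower of 19. Sos1, an exchange factor that activates Ras, fell from 94.2 ± 5.98 to 53.5 ± 5.78 CPM (log2 fold change −0.82 ± 0.11, edgeR adjusted p = 0.0042), with no overlap between the groups. Fyn, a kinase of the Src family, rose by 0.62 ± 0.15 (adjusted p = 0.0197). Src itself rose by 1.74 ± 0.43 (adjusted p = 0.0246). The last 2 lost their calls without NASH replicate 4 and without several single WT libraries.

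The kinase cascade likewise had 2 higher and 1 lower of 11. Mapk3, the kinase ERK1, rose from 20.2 ± 0.910 to 37.0 ± 7.03 CPM (log2 fold change 0.87 ± 0.14, edgeR adjusted p = 0.00749). Nras rose by 0.46 ± 0.14, just past the threshold (adjusted p = 0.0481), and did not pass in most of the alternatives tried, 7 of the 8 that leave out 1 library among them. Braf, a kinase upstream of ERK1, fell from 50.3 ± 1.84 to 35.4 ± 2.21 CPM (−0.51 ± 0.09, adjusted p = 0.0087), and did not pass with library totals alone.

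Attenuators of receptor kinase signalling held 0 higher and 1 lower of 11. The lower gene was Spry4, a Sprouty inhibitor of the Ras pathway, at 4.47 ± 1.77 CPM in NASH and 13.8 ± 4.49 in WT (log2 fold change −1.62 ± 0.33, edgeR adjusted p = 0.0137). Slc9a3r1, a scaffold protein known to bind the beta receptor, gave −0.49 ± 0.19 (adjusted p = 0.1). None of the 5 immediate-early genes passed. Fos stood at 576 CPM in WT replicate 4 and at 1.92 to 8.38 in the other WT libraries, and Egr1 at 958 CPM in that library and at 14.04 to 52.0 in the others. The WT means of both genes therefore rest on 1 library. Without it the log2 fold changes of Pdgfb and Pdgfrb were 2.69 and 1.76, beside 2.61 and 1.76 with it.

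Markers of cell types that carry the receptors or release the ligands were read in the same libraries. Of 12 stellate cell genes, 3 were higher and 0 lower, and their sum was 726 to 1077 CPM in NASH and 574 to 734 in WT. The number higher was 1 without WT replicate 1, and only Nes, nestin, at 1.61 ± 0.27 (edgeR adjusted p = 0.00783), passed without each library in turn. Des, desmin, gave 1.01 ± 0.30 (adjusted p = 0.0468) and did not pass without 6 of the 8 libraries. Dcn, decorin, rose by 0.83 ± 0.19 on the log2 scale (edgeR adjusted p = 0.0196), but did not pass without NASH replicate 4 or without WT replicate 1, 3 or 4. Rgs5, a pericyte gene, gave 1.00 ± 0.35 (adjusted p = 0.0759). Lrat, the acyltransferase that forms the retinyl esters of quiescent stellate cells, gave 0.60 ± 0.21 (adjusted p = 0.0757). Of the 12 genes 8 had positive values and the other 4, Hhip (−1.20, adjusted p = 0.0601), Vipr1 (−0.48), Ngfr (−0.19) and Ecm1 (−0.13), negative ones. For Hhip every NASH library lay below every WT library. As a percentage of the stellate sum, Pdgfrb was 2.26, 3.67, 3.70 and 5.03 in NASH replicates 1 to 4 and 1.49 to 1.85 in WT, so it exceeded the WT share in each NASH library, and Pdgfra was 2.06 to 2.95 in NASH and 1.80 to 2.04 in WT.

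All 9 myofibroblast genes were higher (edgeR), with sums of 192, 497, 451 and 1131 CPM in NASH replicates 1 to 4 and 47.6 to 49.3 in WT. Col3a1 and Col1a2, fibrillar collagen genes, rose by 3.81 ± 0.46 and 3.60 ± 0.45 on the log2 scale (adjusted p = 0.00349 and 0.00379). The sum was lowest in NASH replicate 1 and highest in replicate 4, as Pdgfra and Pdgfrb were, but replicate 2 exceeded replicate 3. The full order of both receptors, 1, 2, 3 and 4 from low to high, was that of the smooth muscle, endothelial and platelet sums. As a percentage of this sum, Pdgfrb was 4.70 to 8.83 in NASH and 17.97 to 24.7 in WT, and Pdgfra was 2.76 to 7.80 and 21.6 to 30.8, so that no NASH library reached the WT range. Of the 9 genes, 5 passed without each library in turn, both collagens among them. Of 6 portal fibroblast genes tested 2 were higher, namely Dpt (1.94 ± 0.45, adjusted p = 0.0193, and 0.0569 without WT replicate 1) and Fbln2 (2.19 ± 0.40, adjusted p = 0.0105), and sums were 10.9 to 25.8 CPM in NASH against 5.21 to 8.19 in WT. Of 3 smooth muscle genes tested 1 was higher, Smtn (1.10 ± 0.30, adjusted p = 0.0337, not passing without 6 of the 8 libraries), while Myh11 gave −0.03, and the sums were 10.4 to 28.4 against 9.30 to 10.8 CPM. The part of these cells in the receptor values was not tested.

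Pdgfb is known from endothelial cells, platelets and macrophages. Macrophage genes had 8 higher of 10, and their sums were 338.5, 448.5, 1854 and 1151 CPM in NASH replicates 1 to 4 and 65.8 to 221 in WT. That order, from replicate 1 to 2, 4 and 3, was also the order of Pdgfb. It was shared by the stellate, cholangiocyte and neutrophil sums, and by the mesothelial sum, which was nearly all the keratin gene Krt8. Gpnmb, a phagocyte glycoprotein, rose by 6.87 ± 0.81 and Lyz2, lysozyme, by 2.44 ± 0.56 on the log2 scale (edgeR adjusted p = 0.00343 and 0.019). Lyz2 did not pass without WT replicate 1, 3 or 4, and 6 of the 8 genes passed without each library in turn. Of 6 Kupffer cell genes 1 was higher, Cd5l (2.52 ± 0.51, edgeR adjusted p = 0.0136), and Clec4f, a Kupffer cell marker, gave 0.67 ± 0.26 (adjusted p = 0.103). Timd4 and Marco, also among these 6 genes, gave −1.10 ± 0.51 and −1.43 ± 0.84 (edgeR adjusted p = 0.153 and 0.249). For the Kupffer list the sums were 328.5 to 1132 against 116 to 351 CPM. Cd5l alone averaged 409.5 CPM of the list's 632.9 in NASH and 71.55 of 225 in WT, so the higher NASH sum was largely that gene. Endothelial genes had 1 higher of 12, Vwf (1.27 ± 0.33, edgeR adjusted p = 0.0292, not passing without 6 of the 8 libraries), with sums of 314 to 641 against 239 to 419 CPM; Kdr gave −0.16 ± 0.19 (adjusted p = 0.565) and Stab1 0.80 ± 0.27 (adjusted p = 0.0657). Of 4 platelet and megakaryocyte genes tested 1 was higher, Pf4 (3.07 ± 0.75, adjusted p = 0.0228, not passing without NASH replicate 4 or WT replicate 1, 2 or 3), and sums were 9.89 to 29.0 against 6.65 to 12.4 CPM; Itgb3 gave 0.71 and Itga2b 1.08 (adjusted p = 0.195 and 0.0628), while Gp9, Gp1ba, Gp1bb and Gp6 lay below the filter. The part of any of these cells in the Pdgfb values was not tested.

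**Figure D5:**
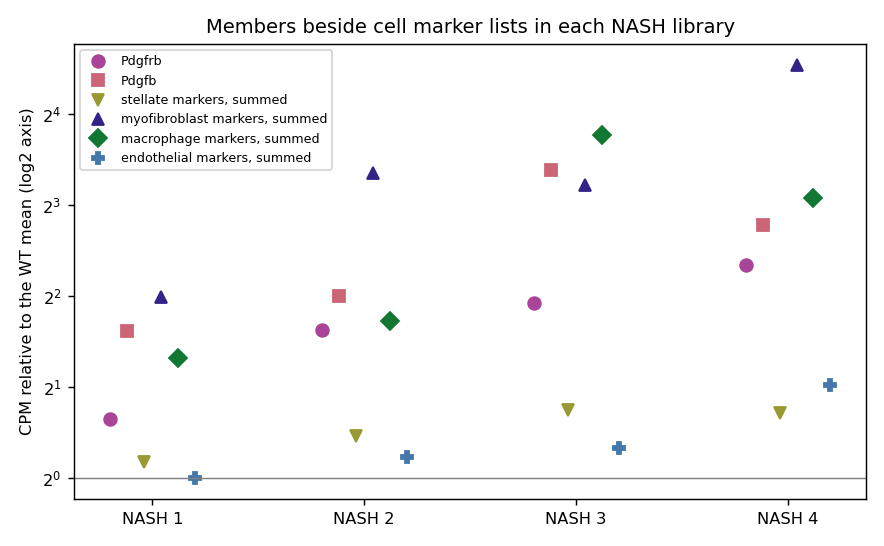
CPM of Pdgfrb and Pdgfb and summed CPM of 4 cell marker lists in each NASH library, relative to their WT mean (grey line at 1), on a log2 axis. Myofibroblast markers reach 23.3 times the WT mean in replicate 4 and macrophage markers 13.6 times in replicate 3, while stellate markers stay between 1.13 and 1.67 times.

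Cholangiocyte genes had 2 higher of 6 tested, with sums of 107 to 755 CPM in NASH and 80.4 to 120 in WT; Spp1 rose by 2.48 ± 0.56 (edgeR adjusted p = 0.0186, not passing without WT replicate 1 or 4). Among 3 mesothelial genes tested 1 was higher, Krt8 (2.01 ± 0.32, edgeR adjusted p = 0.00749), a keratin that liver epithelium also expresses. Wt1 gave 1.85 ± 0.72 and Upk3b −0.09 ± 1.03 (adjusted p = 0.1 and 0.961). The sums, 244 to 753 against 94.8 to 131 CPM, were nearly all Krt8. Its means were 441 CPM in NASH and 109.5 in WT, where the list averaged 444 and 110.8. Both neutrophil genes tested, S100a8 and S100a9, did not pass, at 3.08 ± 1.02 and 3.21 ± 1.08 (adjusted p = 0.062 and 0.0646), and their list summed to 2.40 to 69.0 against 0.925 to 3.86 CPM. None of 5 lymphocyte genes tested passed, with Cd4 at −0.91 and sums of 3.78 to 6.30 against 3.21 to 5.21 CPM. Of 9 hepatocyte genes 0 were higher and 1 was lower, Serpina1c (−1.34 ± 0.37, adjusted p = 0.0346, not passing without NASH replicate 2 or 4 or any single WT library), which has close paralogs that may share reads. Their sum was 147600 to 180100 CPM in WT and 50210 to 106600 in NASH, with Alb at −0.99 ± 0.41 and Apob at −0.29 ± 0.25 (adjusted p = 0.118 and 0.422).

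The genes nearest in pattern to each member were those with the smallest root mean square difference in centred log2 CPM over the 8 libraries, out of 12350 candidates. Nearest to Pdgfrb were Maged2 (0.12), Prss23 (0.15) and Col5a1 (0.16), the last a collagen V chain with means of 29.3 and 9.35 CPM in NASH and WT. Pdgfra was nearest to App (0.08), the amyloid precursor, Stk17b (0.11) and Gnai2 (0.12). Pdgfb was nearest to Ccdc88b (0.22), Mpeg1 (0.27) and Hk3 (0.29). Mpeg1, perforin-2 of phagocytes, had means of 499.5 and 83.0 CPM in NASH and WT. Genes near Pdgfc included Fam115a (0.17) and Sdcbp (0.19), and Pdgfd lay nearest to Map2 (0.19), Gsn (0.21), the actin-severing gelsolin, and Tctn1 (0.24). For Pdgfa they were Cdc25a (0.15), Mkl1 (0.16) and Gja1 (0.19), connexin 43. Within the family the closest pair was Pdgfc and Pdgfra (0.35), then Pdgfra and Pdgfrb (0.43), and the farthest was Pdgfb and Pdgfd (1.16). These distances are descriptions, and the 8 libraries behind them are the ones compared above.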

How the data were processed

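Total RNA from frozen liver was extracted with Trizol and made into stranded TruSeq libraries, per the labels' protocols. Per the submitters' processing notes, the tools were HISAT2 and HTSeq 0.9.1 and the builds mm9 and mm10, with no role stated for either build. The annotation and strand setting are not given in these sources. The deposited table covers 16122 genes and its values used here are raw counts, per the file headers. Its 8 further columns of the authors' normalized values were not used. Columns named Control were read as the WT samples. Totals set the precision: Pdgfb rested on 84 counts over the 4 WT libraries.

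The counts were tested with edgeR 4.0.16 in R 4.3.3 (robust quasi-likelihood F-test, TMM scaling, default low-count filter, 12351 genes, Benjamini-Hochberg, threshold 0.05). The SE is the log2 fold change over the square root of F. CPM are TMM-scaled, and log2 CPM for pattern distances used a prior count of 2. Within-library ratios used log2 of CPM plus 0.5. Exon lengths came from GENCODE M21, matched for 15981 genes (99.13%). Upstream sequence came from RefSeq and was read for 4 of the 6 members. Chromosome 18, which holds Pdgfrb, was left out of that search, and no window was found for Pdgfb. Pdgfa was not shown because its window overlaps annotated exons. Alternatives were other scalings and filters, DESeq2 1.42.0, limma-voom (limma 3.58.1), the replicate number as a block and each library left out. The script was tested on simulated data.

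Members and lists were chosen with earlier results of these data known. Named genes are the members, the 2 smallest p per pathway role group, the 2 most abundant per marker list and the 3 nearest in pattern to each member. Src, Nras, Furin, St14, Kit, Lrat, Nes, Des, Hhip, Vipr1, Ngfr, Ecm1, Timd4, Marco, Vwf, Pf4, Upk3b and Serpina1c were added after their values were seen. Some genes the rule names are not reported here. No pair of libraries in a group agreed within sampling noise (chi-square per gene 20.6 to 453). Same-numbered libraries did not deviate together, so numbers were not used as pairs.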

Additional observations from a re-analysis of the deposited data

Results flagged for a closer look

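Within each group of 4 libraries, a value was singled out where its gap to the nearest other library as a share of the group's range exceeded Dixon's 95% critical value. None of the 12 member groups was singled out, and 7 of 92 groups were over the 46 genes tested, where chance gives about 1 in 20 (4.6). Thbs1 reached 54.4 CPM in NASH replicate 3 against 7.41 to 15.3 in the other NASH libraries. Fos reached 14.7 CPM in NASH replicate 3 (others 4.37 to 4.74) and 576 CPM in WT replicate 4 (others 1.92 to 8.38). Egr1 stood at 958 CPM in WT replicate 4 against 14.04 to 52.0. Col3a1 stood at 20.2 CPM in WT replicate 2 (others 17.9 to 18.2), Kdr at 79.6 CPM in NASH replicate 4 (others 50.6 to 55.0) and Alb at 31690 CPM in NASH replicate 3 (others 75860 to 79640).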

How the results depend on the processing

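All 6 members kept a positive log2 fold change under all 15 alternatives. The number passing was 3, became 5 with library totals alone, under which the all-gene median log2 value was 0.37 and that of the members 1.43, and ranged from 2 to 5 when single libraries were left out. Library totals moved Pdgfc to 1.53 and Pdgfd to 1.18, both then passing, and with that scaling 93.3% of all calls were higher against 68.3%. DESeq2 called Pdgfc at 1.07. Leaving out single libraries gave log2 fold changes of 0.65 to 1.27 for Pdgfc, 0.58 to 1.01 for Pdgfd and 0.75 to 1.09 for Pdgfra. Of the pathway genes, 13 were higher with library totals, 4 with limma-voom and 2 to 11 without single libraries; 7 were lower with DESeq2 and 3 to 6 without single libraries. Groups without overlap numbered 4 with library totals and 2 to 5 without single libraries, and of the 18 nearest genes 5 to 11 remained; these last alternatives were chosen after seeing the data. With the replicate block 1 member passed: Pdgfb gave 2.50 (adjusted p = 0.0626) and Pdgfra 0.88 (0.104), Pdgfrb still passed at 1.65 (0.044), 2 pathway genes were higher, and 467 genes were higher and 151 lower against 1597 and 741. Same-numbered libraries had correlations of 0.03, −0.14, −0.14 and −0.02 after each group's own mean was taken off. Whether they share a batch is not stated in the labels and was not tested. No pair of members passed under any alternative, which says little about stability: 9 of 15 pairs at the smallest p were needed, and with the replicate block no p could fall below 0.125. The cause of these differences was not tested. Low counts limit Pdgfb, with 9 to 26 reads in each WT library.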
